A study of Mus musculus with 12 samples.

Results

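The 10 genes described here encode the calcium-dependent phosphatase calcineurin, its Rcan inhibitors and the NFAT transcription factors. They are Ppp3ca, Ppp3cb, Ppp3r1, Rcan1, Rcan2, Nfatc1, Nfatc2, Nfatc3, Nfatc4 and Nfat5, chosen by symbol out of 21883 nuclear protein-coding genes, and their peaks are those that the authors' annotation assigned to them. Hoxb13, a posterior Hox protein, and Meis1, a homeobox factor of the TALE class, had been mapped by chromatin immunoprecipitation and sequencing in ventricles of CD-1 mice at postnatal day 15. CD-1 is an outbred strain, and the labels name no transgene, mutation or drug in any group. The 4 groups of 3 libraries were the Hoxb13 precipitates (replicates 4 to 6), the Meis1 precipitates (replicates 1 to 3) and the input chromatin of each, and each factor's precipitates were deposited as 1 peak list. Per the labels' protocols the ventricles of 3 hearts served as triplicates, and the chromatin left after taking the inputs was divided between the antibodies, so by that text both lists come from the same hearts, although the replicate numbers differ. The Hoxb13 list held 22284 peaks, 22 of them at the 10 genes, and the Meis1 list 30534, 24 of them at the 10 genes. No value per library was used and depth was unknown, so no spread between hearts and no test can be given. Whole ventricles hold several cell types, and expression was not analysed here, so the cells behind a peak and the tissue label itself were not checked against markers.

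Calcineurin is switched on by calcium and calmodulin. It has a catalytic subunit, encoded in the heart by Ppp3ca or Ppp3cb, and a calcium-binding regulatory subunit, encoded by Ppp3r1. It removes phosphate from NFATc1 to NFATc4, which then enter the nucleus, and Rcan proteins bind and restrain it. In the mouse heart the pathway is best known for driving hypertrophic growth. The paper on this study places calcineurin upstream of the Hoxb13 protein, which is the reason to ask where Hoxb13 and its partner Meis1 sit on the genes of the pathway itself.

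The promoter windows that carry the findings are shown first, because both factors had peaks near some starts and neither had one at others. Each window runs from 250 bases before to 50 bases after a RefSeq start site (GRCm38.p6, the assembly behind mm10), 5′ to 3′ on the strand of the gene. Capitals mark matches, on either strand, to 7 short motifs. The sites known for Hoxb13 were searched as CAATAAA, which is rich in adenine, and in a second form with a CpG as TCGTAAA. The site known for Meis proteins was searched as TGACAG. The joint site of a Pbx protein and a Hox partner was searched as TGATTTA. For NFAT proteins the letters were GGAAAA, while GATA factors were represented by AGATAA. The E-box, bound by helix-loop-helix proteins, was searched as CACGTG. Both Rcan1 starts are shown because the upstream start had peaks of both factors and the internal start had none. Ppp3r1 is shown for a Meis motif under a Meis1 peak, Nfatc2 for a Hoxb13 peak over its upstream start, and Nfatc3 as the gene with no peak.
Rcan1 upstream start, chr16:92466120-92466419, minus strand: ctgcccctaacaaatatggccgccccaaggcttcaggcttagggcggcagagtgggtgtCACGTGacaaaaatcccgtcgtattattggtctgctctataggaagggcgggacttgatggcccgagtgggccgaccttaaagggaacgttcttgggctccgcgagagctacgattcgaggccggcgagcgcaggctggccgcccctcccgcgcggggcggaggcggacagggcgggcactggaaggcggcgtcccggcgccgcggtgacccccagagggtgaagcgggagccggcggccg
Rcan1 internal start, chr16:92400029-92400328, minus strand: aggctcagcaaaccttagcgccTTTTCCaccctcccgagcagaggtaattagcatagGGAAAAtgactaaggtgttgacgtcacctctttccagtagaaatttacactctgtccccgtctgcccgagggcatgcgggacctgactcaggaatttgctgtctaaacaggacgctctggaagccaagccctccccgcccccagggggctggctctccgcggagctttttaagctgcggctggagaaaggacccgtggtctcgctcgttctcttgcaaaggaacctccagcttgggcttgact
Ppp3r1, chr11:17159048-17159347, plus strand: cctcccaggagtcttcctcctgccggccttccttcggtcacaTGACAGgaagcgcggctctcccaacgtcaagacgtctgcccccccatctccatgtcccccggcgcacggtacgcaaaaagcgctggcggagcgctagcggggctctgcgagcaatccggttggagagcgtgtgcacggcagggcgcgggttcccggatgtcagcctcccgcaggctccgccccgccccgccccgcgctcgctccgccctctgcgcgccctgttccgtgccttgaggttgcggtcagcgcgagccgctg
Nfatc2, chr2:168601608-168601907, minus strand: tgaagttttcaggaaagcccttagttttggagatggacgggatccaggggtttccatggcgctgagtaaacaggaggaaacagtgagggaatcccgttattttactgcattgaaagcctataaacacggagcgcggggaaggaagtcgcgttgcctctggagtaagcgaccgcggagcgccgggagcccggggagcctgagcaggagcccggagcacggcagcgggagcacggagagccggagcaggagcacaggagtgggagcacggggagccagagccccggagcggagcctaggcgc
Nfatc3, chr8:106059340-106059639, plus strand: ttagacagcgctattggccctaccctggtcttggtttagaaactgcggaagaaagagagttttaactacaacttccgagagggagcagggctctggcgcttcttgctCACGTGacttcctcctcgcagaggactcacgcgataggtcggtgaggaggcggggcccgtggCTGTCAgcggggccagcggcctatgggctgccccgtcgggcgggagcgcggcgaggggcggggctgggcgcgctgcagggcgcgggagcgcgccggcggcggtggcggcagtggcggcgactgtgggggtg

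Hoxb13 was found at 8 of the 10 genes and Meis1 at 5. Among all protein-coding genes 44.4% had a Hoxb13 peak and 38.2% a Meis1 peak. The 5 genes with both factors were Ppp3ca, Ppp3r1, Rcan1, Rcan2 and Nfatc2, where 23.9% of all genes had both. Nfatc1, Nfatc4 and Nfat5 had Hoxb13 alone, Ppp3cb and Nfatc3 had no assigned peak, and 0 of the 10 had Meis1 alone. Over all genes 20.5% had Hoxb13 alone, 14.3% Meis1 alone and 41.3% neither, so with 10 genes the counts of 3 with Hoxb13 alone and 0 with Meis1 alone are near these shares. By role, the 5 genes for subunits and Rcan inhibitors had 12 Hoxb13 and 20 Meis1 peaks, and the 5 NFAT genes had 10 Hoxb13 and 4 Meis1 peaks. Of the 20 Meis1 peaks, 13 were at Rcan1 and Rcan2, and all 4 Meis1 peaks of the NFAT genes were at Nfatc2. These counts by role are not divided by locus size. A gene had a median of 2.5 Hoxb13 peaks and 1 Meis1 peak, against a median of 0 over all genes for either factor. The loci of these genes are long, with a median of 125 kb against 45.7 kb over all genes, counting as the locus the gene itself and its surroundings as far as midway to the next protein-coding gene on each side. The shares of genes with a peak given above are not matched for locus size. In decile 9 of locus size, which holds 4 of the 10 genes, 56.0% had a Hoxb13 peak and 62.5% a Meis1 peak. In the deciles of the others the shares ran from 41.2% to 65.2% for Hoxb13 and from 31.6% to 78.5% for Meis1. Per 100 kb of locus the 10 genes together had 1.20 Hoxb13 and 1.31 Meis1 peaks, against 0.728 and 0.913 over all genes. The Meis1 density came largely from Rcan1 and Rcan2, which had 13 of the 24 peaks. Without them, a split made after the values were seen, the other 8 genes had 1.10 Hoxb13 and 0.759 Meis1 peaks per 100 kb, so their Meis1 density was below that of all genes. The median per gene over the 10 was 1.14 Hoxb13 and 0.39 Meis1 peaks per 100 kb, against 0 for either factor over all genes. Medians over all genes, of counts and of densities, are 0 because most genes had no peak of the given factor. The Meis1 median of 0.39 is midway between genes at 0 and Ppp3ca at 0.779, and is below the 0.913 of all genes together.

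**Figure D1:**
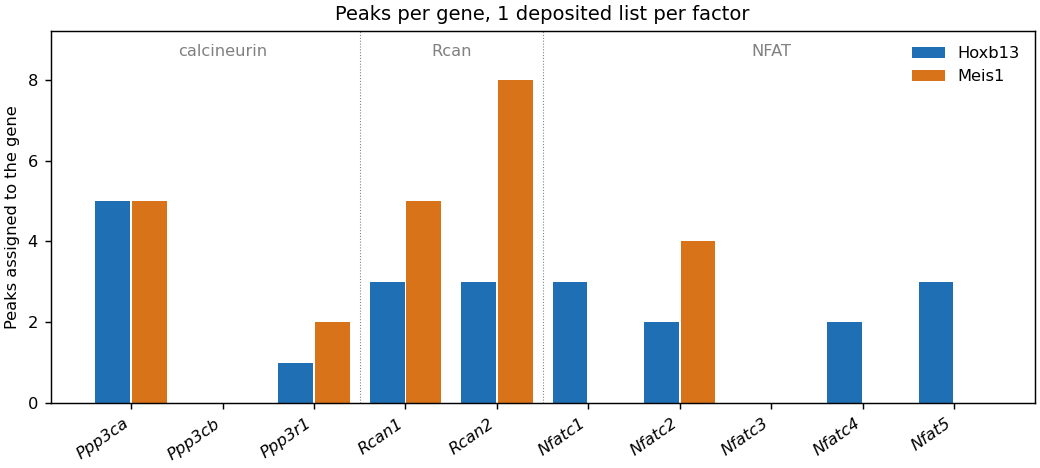
Number of peaks of Hoxb13 (blue) and Meis1 (orange) that the authors assigned to each gene, with the genes in the order calcineurin, Rcan and NFAT. Rcan2 has 8 Meis1 peaks, Nfatc1, Nfatc4 and Nfat5 have Hoxb13 peaks alone, and Ppp3cb and Nfatc3 have 0 of either.

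At gene starts Hoxb13 was the more frequent factor. A peak in the authors' promoter class, which reaches to 1 kb from a start site, was present at 7 of the 10 genes for Hoxb13 and at 3 for Meis1. Over all genes the shares were 30.7% for Hoxb13 and 8.16% for Meis1. The 3 genes with a promoter peak of both factors were Ppp3r1, Rcan1 and Rcan2, where 4.69% of all genes had both. By peaks, 9 of the 22 Hoxb13 peaks were in promoters (40.9%, exact binomial 95% interval 20.7 to 63.6), a share near the 40.3% of the whole list. For Meis1 it was 4 of 24 (16.7%, interval 4.74 to 37.4), against 6.73% of the list, which lies within the interval. Most other Meis1 peaks were intronic, 16 of 24 (66.7%, interval 44.7 to 84.4) against 33.4% of the list. Intronic Hoxb13 peaks numbered 8 of 22 (36.4%, interval 17.2 to 59.3) against 23.4%. These intervals cover counting error only, and peaks of the same gene are not independent.

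**Figure D2:**
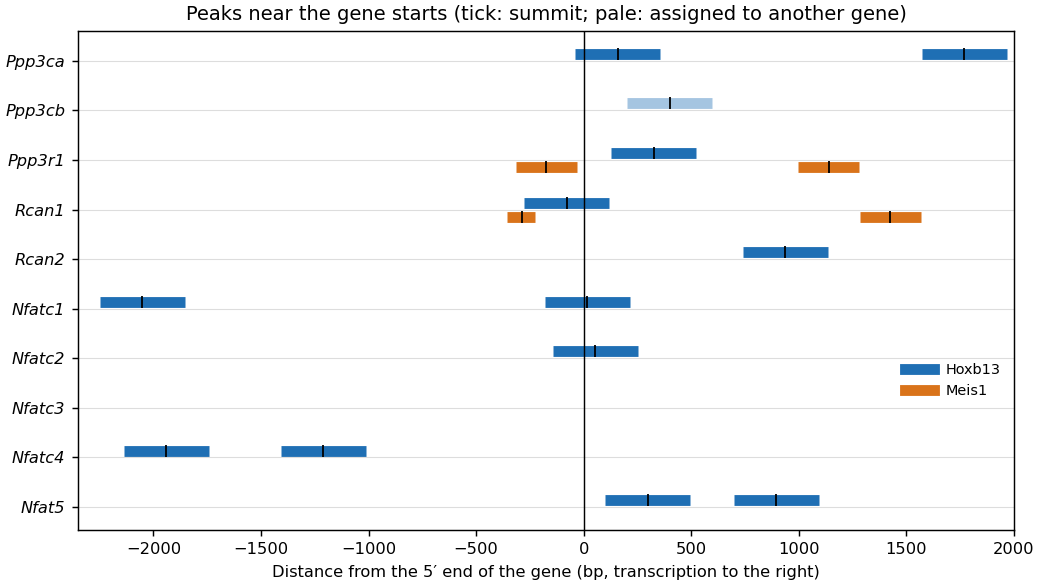
Peaks near the 5′ end of each RefSeq gene model, in bp and in the direction of transcription, with Hoxb13 in blue above Meis1 in orange and a tick at each summit. Hoxb13 peaks lie at or near the starts of 9 genes, counting the pale peak beside Ppp3cb that was assigned to an overlapping gene, and Nfatc3 has 0 peaks in this window.

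Among the catalytic subunits, Ppp3ca and Ppp3cb stood apart. Ppp3ca, on chromosome 3 from 136669714 to 136937727 (mm10), had 5 peaks of each factor. A Hoxb13 peak covered its start (136669676 to 136670071, strength 28.9, top 20.4% of the list). Strength is the authors' deposited signal value per peak, compared within a list only. The strongest Hoxb13 peak of the gene lay in intron 1, 1.22 kb from the nearer start (136671286 to 136671681, strength 35.7, top 10.5%). Meis1 had no peak within 55.2 kb of a Ppp3ca start.

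The factors overlapped in intron 1 of Ppp3ca, 55.3 kb from the nearer start by the edge of the Hoxb13 peak. The Hoxb13 peak ran from 136725345 to 136725740 (strength 27.1, top 24.8%) and the Meis1 peak from 136725275 to 136725558 (strength 57.3, top 6.72%). They shared 214 bp, which was 54.0% of the Hoxb13 and 75.4% of the Meis1 peak, and their summits were 126 bp apart. This Meis1 peak was the strongest of the gene. The other 4 Meis1 peaks had strengths of 17.3 to 22.3, in intron 2 and in the gaps on either side of the gene as far as 174 kb from a start. The remaining 2 Hoxb13 peaks, in intron 1 and beyond the gene, were among the weakest 10% of the list (strengths 17.9 and 18.1). The locus of Ppp3ca is 641 kb long. In the decile of genes with the longest loci, 65.2% had a Hoxb13 peak and 78.5% a Meis1 peak, while 11.6% had at least 5 Hoxb13 peaks and 40.0% at least 5 Meis1 peaks, so its Meis1 count is common for a locus of that size.

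Ppp3cb (chromosome 14, 20499364 to 20546573) had 0 assigned peaks, but a Hoxb13 peak lay inside its 5′ end. That peak, from 20545975 to 20546370 (strength 24.8, top 32.2%), began 203 bp from the RefSeq start of Ppp3cb, and the authors assigned it to the overlapping RIKEN cDNA gene 1810062O18Rik, whose start it covered. Counted by position, Hoxb13 was thus within 1 kb of a start at 8 of the 10 genes. The share of all genes counted in this way is not given here. The nearest Meis1 peak to the Ppp3cb start was 63.7 kb away. Among genes with loci of similar size (decile 6 of 10), 42.9% had an assigned Hoxb13 peak and 34.6% a Meis1 peak.

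Ppp3r1, the regulatory subunit gene (chromosome 11, 17159298 to 17200380), had its 3 peaks side by side at the start. A weak Meis1 peak lay just upstream (17158983 to 17159266, strength 17.7, top 60.6%), with its summit 173 bp before the start site. The Hoxb13 peak followed downstream (17159427 to 17159822, strength 25.5, top 29.5%), 160 bp from the edge of the Meis1 peak and with its summit 500 bp away. A stronger Meis1 peak came next (17160295 to 17160578, strength 32.3, top 15.7%), 472 bp beyond the Hoxb13 peak. It was placed in the promoter class at 997 bp from the start, just inside the limit. In the window printed above, the upstream Meis1 peak covers the first 219 bases. The capitals of TGACAG, 208 bp before the start, fall within it and 30 bp from its summit.

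Counted over the whole list, the Rcan inhibitor genes carried the densest Meis1 peaks of the set. Most Meis1 peaks of Rcan2 were weaker than the median of the list (18.7), so its place by count and density rests on weak peaks. Rcan1 (chromosome 16, 92391951 to 92466169) had 3 Hoxb13 and 5 Meis1 peaks, or 2.82 and 4.70 per 100 kb of its 106 kb locus. Rcan2 (chromosome 17, 43801352 to 44039516) had 3 Hoxb13 and 8 Meis1 peaks, or 1.06 and 2.83 per 100 kb of its 283 kb locus. In their size deciles, 50.9% of genes had a Hoxb13 peak and 51.9% a Meis1 peak for Rcan1 (decile 8), and 56.0% and 62.5% for Rcan2 (decile 9, which also holds Nfatc1, Nfatc2 and Nfat5). At least 5 Meis1 peaks were found at 3.29% of genes in the size decile of Rcan1, and at least 8 at 2.29% of genes in that of Rcan2. For Hoxb13, at least 3 peaks were found at 13.4% and 15.5% of genes in these deciles.

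Rcan1 has an upstream start and an internal start, and the internal start is known as a target of NFAT that gives a shorter isoform. Both factors lay at the upstream start. The Hoxb13 peak covered it (92466050 to 92466445, strength 27.3, top 24.0%), with the summit 79 bp upstream. The Meis1 peak next to it (92466394 to 92466525) had a strength of 110 and was the strongest Meis1 peak of the 10 genes, in the top 2.42% of the list. It was 132 bp wide, its summit was 286 bp upstream, and it shared 52 bp with the Hoxb13 peak (13.1% of the Hoxb13 and 39.4% of the Meis1 peak). The summits were 207 bp apart, so the overlap joined the flanks of the peaks. In the upstream window printed above, the Hoxb13 peak covers all 300 bases and the Meis1 peak the first 26. The E-box CACGTG, 191 bp before the start, lies under the Hoxb13 peak but outside the Meis1 peak, 107 bp and 95 bp from their summits.

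The internal start of Rcan1 had no peak on it. The nearest Hoxb13 peak was 15.9 kb upstream (strength 18.1, top 92.7%) and the nearest Meis1 peak 2.98 kb downstream in intron 2 (92396813 to 92397096, strength 32.9, top 15.2%). The internal window has 2 matches to GGAAAA, 228 and 193 bp before the start, and the upstream window has 0. The factors also came close within intron 1. There the strongest Hoxb13 peak of the gene (92428026 to 92428421, strength 42.3, top 6.03%) was followed after 198 bp by a Meis1 peak (92428620 to 92428903, strength 28.3, top 19.4%). A further Meis1 peak in intron 1, 14.2 kb from the upstream start, had a strength of 52.0 (top 7.76%).

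Rcan2 had separate Hoxb13 and Meis1 sites. The Hoxb13 promoter peak (43802091 to 43802486, strength 23.7, top 36.9%) and the Meis1 promoter peak (43803802 to 43804085, strength 18.5, top 51.3%) were 1.32 kb apart and belonged to different start sites of the gene. The strongest Meis1 peak of Rcan2 lay in intron 2 (43855238 to 43855521, strength 69.9, top 4.93%), 18.7 kb from the nearest Hoxb13 peak. That Hoxb13 peak was placed by the authors in a 5′ UTR (43836120 to 43836515, strength 20.9). Of the 8 Meis1 peaks, 6 had strengths of 16.7 to 18.5, below the list median of 18.7. The one farthest upstream, 57.6 kb before the start, lay in intron 10 of a transcript of the neighbouring gene Cyp39a1.

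**Figure D3:**
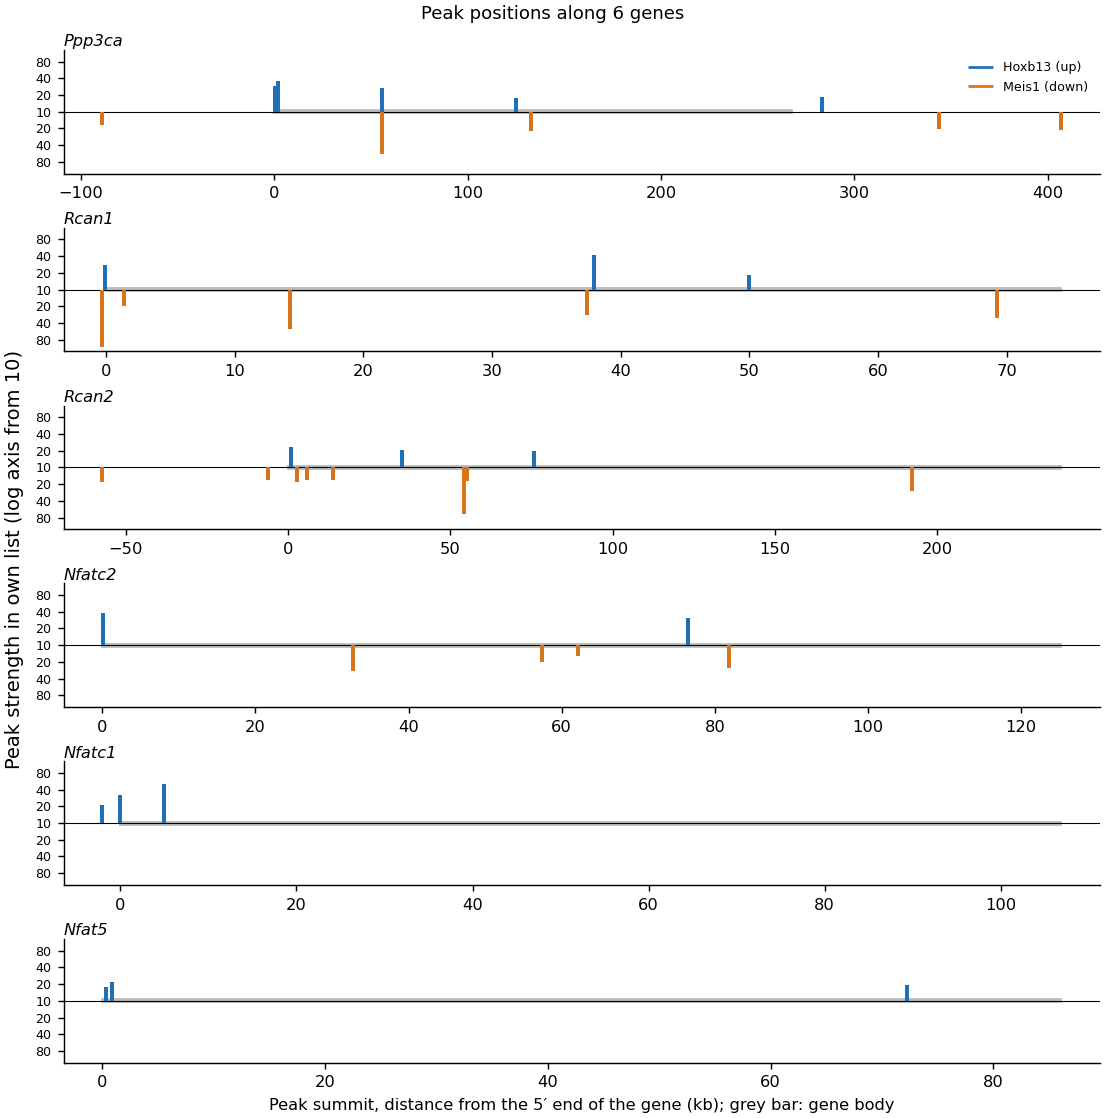
Summit positions along 6 genes, in kb from the 5′ end of the gene, with the height of each line giving the peak strength on a log axis that starts at 10. Hoxb13 lines (blue) point up and Meis1 lines (orange) down, the grey bar is the gene body, and strengths are comparable only within a factor. Blue and orange lines meet in intron 1 of Ppp3ca and at the upstream start of Rcan1, and Nfatc1 and Nfat5 have blue lines alone.

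Among the NFAT genes, Nfatc1 had the strongest Hoxb13 peak of the set. Nfatc1 is known for its role in heart valve formation in the mouse and has 2 start sites in the authors' annotation, 80713071 and 80708173 on chromosome 18. Each was covered by a Hoxb13 peak. The peak on the downstream start (80707858 to 80708253) had a strength of 50.3 (top 3.54%) and that on the upstream start (80712857 to 80713252) a strength of 32.0 (top 14.7%). Another lay 1.86 kb further upstream (80714926 to 80715321, strength 21.1, top 52.8%). The nearest Meis1 peak to a start of Nfatc1 was 213 kb away.

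Nfatc2, first studied in T cells, was the NFAT gene with both factors. Hoxb13 covered its upstream start (chromosome 2, 168601406 to 168601801, strength 38.5, top 8.23%), with the summit 53 bp downstream. Of the 300 bases printed above, 194 lie under that peak, and they hold none of the 7 motifs. At the downstream start, 168590365, the nearest Hoxb13 peak was 11.0 kb away. The 4 Meis1 peaks of Nfatc2 were all intronic, in introns 2, 3 and 6, with strengths of 15.6 to 29.3, and the nearest was 21.3 kb from a start. The closest approach of the factors was 5.03 kb, between a Hoxb13 peak in intron 5 (168524978 to 168525373, strength 30.6) and a Meis1 peak in intron 6 (168519668 to 168519951, strength 26.0).

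Nfatc3 and Nfatc4, both tied to cardiac hypertrophy in mouse experiments, differed from each other. Nfatc4 (chromosome 14, 55824795 to 55833943) had 2 Hoxb13 peaks upstream, at 1013 bp (strength 28.3, top 21.5%) and 1744 bp (strength 18.3, top 87.3%) from the start. The nearer one lay just outside the promoter class. In its size decile 41.2% of genes had a Hoxb13 peak and 31.6% a Meis1 peak, and 14.8% had at least 2 Hoxb13 peaks. Nfatc3 (chromosome 8, 106058818 to 106130537) had 0 peaks of either factor, and the nearest to a start were 91.4 kb away for Hoxb13 and 66.0 kb for Meis1. Its locus of 74.2 kb falls in a size decile in which 44.6% of genes had a Hoxb13 peak and 42.4% a Meis1 peak, so having 0 is common there. Nfat5, which responds to osmotic stress and is not controlled by calcineurin, had 3 Hoxb13 peaks of middling to low rank and 0 Meis1 peaks. Those at its start (chromosome 8, 107293535 to 107293930 and 107294133 to 107294528) had strengths of 17.9 (top 97.7%) and 21.6 (top 48.7%). The remaining one lay 6.80 kb from a downstream start (strength 19.2).

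**Figure D4:**
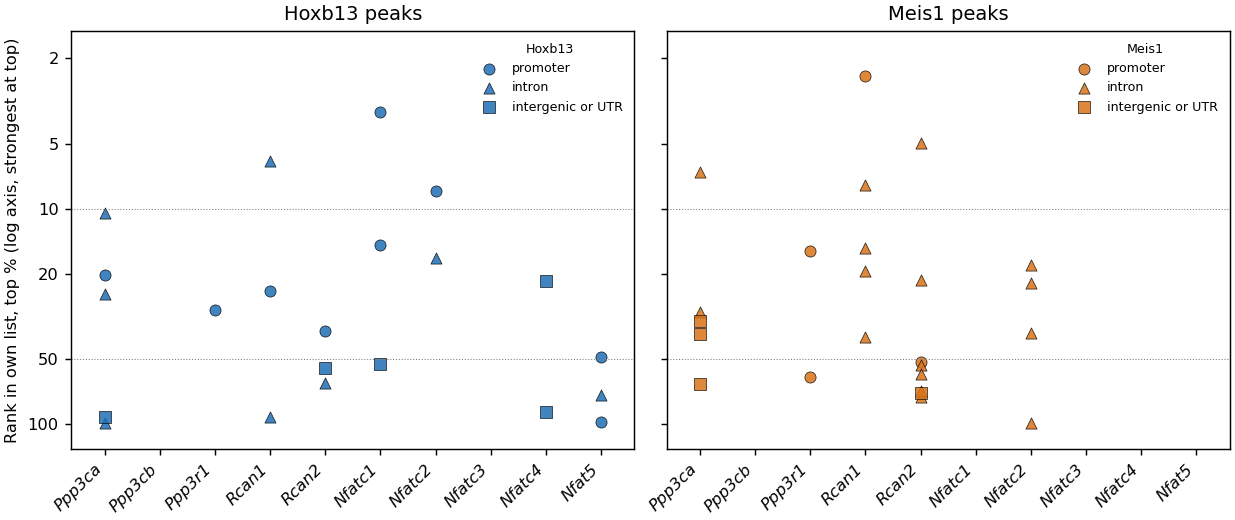
Rank of each peak within its own list, as the top percent by strength on a reversed log axis with the strongest at the top, for Hoxb13 (left) and Meis1 (right). Marker shapes give the annotation class and dotted lines mark 10% and 50%. The highest Hoxb13 point is a promoter peak of Nfatc1 at 3.54% and the highest Meis1 point the promoter peak of Rcan1 at 2.42%.

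The strengths of the 10 genes' peaks spread over most of each list. The Hoxb13 peaks ran from 17.9 to 50.3 with a median of 24.6, against 21.4 for the list, and 3 of 22 were in the strongest 10% (Nfatc1, Nfatc2 and Rcan1). The Meis1 peaks ran from 15.6 to 110 with a median of 20.9, against 18.7 for the list, and 4 of 24 were in the strongest 10% (2 at Rcan1, 1 each at Rcan2 and Ppp3ca). Promoter peaks of Hoxb13 were stronger than its other peaks here, with medians of 27.3 and 20.9, as in the whole list (25.0 and 20.1). The median Hoxb13 peak of the 10 genes lay 1.48 kb from a start and the median Meis1 peak 34.4 kb, against 4.55 kb and 58.2 kb in the lists. An overlapping pair of the factors was present at 2 of the 10 genes, Ppp3ca and Rcan1, where 5.89% of all genes had one. A pair needs a peak of each factor, which 5 of the 10 genes had. Over all genes 5220 had both factors, and 1289 of them had a pair. These counts are not matched for locus size or number of peaks. The summit distance of Ppp3ca, 126 bp, was below the 160 bp median of all 1791 overlapping pairs, and that of Rcan1, 207 bp, above it.

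Genes with the peak pattern of Rcan1 and Ppp3ca were looked up by their counts of Hoxb13 peaks, Meis1 peaks and overlapping pairs, over the 2 lists. For Rcan1, 7 other genes had the same counts of 3, 5 and 1, Sspn and Tbc1d2 among them. For Ppp3ca, 2 others had the same counts of 5, 5 and 1, Tmem131l and Stx6. The next was Lrrc3b, which had no overlapping pair.

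The promoter windows of the set were compared with all windows of the RefSeq table. It held 13 windows for 8 of the 10 genes, and neither Ppp3ca nor Nfatc1 was among them. Peaks of Hoxb13 overlapped 2 of the 13 windows (15.4%, Rcan1 upstream and Nfatc2), against 17.8% of 32851 windows. Peaks of Meis1 overlapped 2 (15.4%, Rcan1 upstream and Ppp3r1), against 4.17%. TGACAG was present in 5 of the 13 windows (38.5%, against 19.2% of all), and 1 of them, Ppp3r1, had a Meis1 peak on it. Both Nfatc3 windows had TGACAG, 55 and 81 bp before their starts, with no Meis1 peak within 66.0 kb. GGAAAA was present in 5 of 13 (38.5%, against 23.4%) and CACGTG in 2 of 13 (15.4%, against 7.15%). The Hoxb13 motifs and the GATA motif had 0 matches in the 13 windows. Over all windows CAATAAA was present in 4.60%, the rarer TCGTAAA in 0.597% and the GATA motif in 11.2%. TGATTTA was in 1 window, at an internal start of Rcan2, against 2.97%.

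Of 35 other genes of the pathway, Hoxb13 was assigned to 28 (80.0%, against 44.4% of all genes) and Meis1 to 16 (45.7%, against 38.2%, a share near that of all genes). The list of these 35 genes was drawn up with earlier results of these data known, so its shares are not an independent test. Both factors were assigned to 15 of them (42.9%, against 23.9%). At promoters Hoxb13 had a peak at 23 (65.7%, against 30.7%) and Meis1 at 6 (17.1%, against 8.16%), and all 6 had both (17.1%, against 4.69%). The 4 genes for transcription factors that work with NFAT had the most peaks, 37 of Hoxb13 and 21 of Meis1. Gata4 had 12 and 6, Mef2a 12 and 6, Mef2d 9 and 3 and Mef2c 4 and 6. The locus of Mef2c is 1294 kb long, with 0.309 Hoxb13 and 0.464 Meis1 peaks per 100 kb. These densities were below the 0.728 and 0.913 of all genes, while those of Gata4, Mef2a and Mef2d were above. At the Mef2a promoter (chromosome 7) 2 Hoxb13 peaks, of strengths 32.5 and 27.0, overlapped 1 Meis1 peak of strength 235, ranked 139 in its list, with the nearer summit 77 bp away. At the Mef2d promoter (chromosome 3) the summits of a Hoxb13 peak of strength 42.5 and a Meis1 peak of strength 18.0 were 47 bp apart.

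Calm2 and Calm3, which encode the calcium sensor calmodulin, had 3 and 1 Hoxb13 peaks, 1 of them in the promoter of each gene, and 0 Meis1 peaks. Among 14 genes for inhibitors and binding proteins, 9 had Hoxb13 (64.3%, against 44.4% of all genes) and 4 Meis1 (28.6%, against 38.2%). Myoz2, which encodes a calcineurin-binding protein of the Z-disc, held 11 Hoxb13 and 6 Meis1 peaks. Its overlapping pair lay 840 bp from a start, with summits 18 bp apart and strengths of 18.2 for Hoxb13 and 17.4 for Meis1. Among 5 NFAT kinase genes, Gsk3a had 3 peaks of each factor and 2 overlapping pairs, and Dyrk1a had a promoter peak of both. The substrate gene Tfeb, a regulator of lysosomal genes, had a pair in intron 1, 9.82 kb from a start by the Hoxb13 peak, and a promoter peak of both factors, and Gata4 had a pair in an intron. Rcan3, Chp1, Chp2, Cib1 and Gsk3b had 0 peaks of either factor, and Myoz3 had Meis1 alone.

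**Figure D5:**
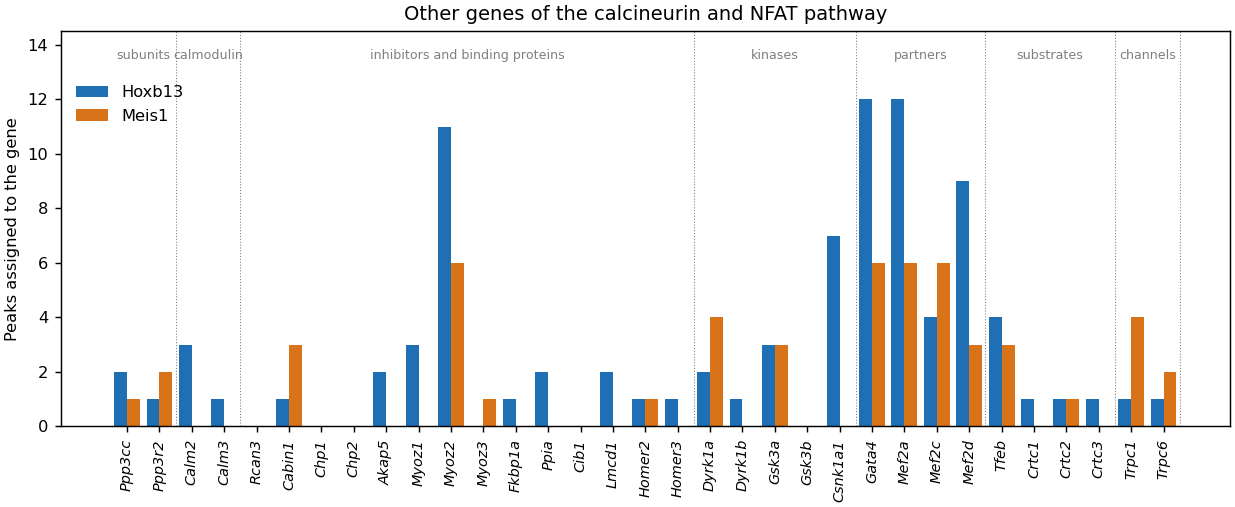
Number of peaks of Hoxb13 (blue) and Meis1 (orange) assigned to further genes of the pathway, grouped by role. The tallest bars are those of Gata4 and Mef2a, with 12 Hoxb13 peaks each, and Calm2 and Calm3 have blue bars alone.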

How the data were processed

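Each factor had 1 deposited peak list over 3 libraries, with a line per peak. Per the submitters' processing notes the tools were deepTools 1.6, ChIPseeker, Picard and Bowtie2 2.2.3 and the build was mm10. What each tool did, which peak caller was used and how it was set is not given in the sources used here, per the labels. The deposited signal value (17.8 to 697 for Hoxb13, 15.6 to 552 for Meis1) served to rank peaks within a list, and a second deposited score was not used. Usual widths were 396 bp for Hoxb13 and 284 bp for Meis1, so a Hoxb13 peak meets a given site more easily. Peaks were counted for a gene by the authors' nearest-gene assignment, over genes of RefSeq's GRCm38.p6 table, which held 10969 of 10981 gene numbers named by the Hoxb13 list and 9830 of 9840 named by the Meis1 list. Overlap needed at least 1 bp. The overlap code was tested on simulated intervals (Python 3.11.15, pandas 2.3.3). Exact binomial 95% intervals came from SciPy 1.17.1. The 10 genes, the 35 further genes, the motifs and the rule for named genes were chosen with earlier results of these data known. The rule named all 10 genes, and further genes with an overlapping pair, a promoter peak of both factors or no peak, plus the 3 genes closest in peak counts to the gene with most pairs (Ppp3ca and Rcan1 tied), with ties broken by locus size. Other further genes (Calm2, Calm3, Mef2c, Myoz3) were named after their values were seen, and some genes that the rule or the list holds are not reported here. The printed promoter windows were chosen after their values were seen, since peak sequences, which the rule asked for, were not analysed here. Inputs entered no comparison. Alternatives were stricter lists, other assignments, other promoter limits and other definitions of overlap.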

Additional observations from a re-analysis of the deposited data

How the results depend on the processing

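Of 35 alternative values for 8 counts, 26 stayed within 1.5 times of the count given above and 9 did not. In the stronger 50% of each list, 13 Hoxb13 and 15 Meis1 peaks were left at the 10 genes, and each gene kept or lacked each factor as before. In the strongest 10%, 3 genes had Hoxb13 (Nfatc1, Nfatc2, Rcan1), 3 had Meis1 (Ppp3ca, Rcan1, Rcan2) and 1 had both (Rcan1). With peaks within 10 kb of a start alone, 3 genes had Meis1 and the same 3 had both (Ppp3r1, Rcan1, Rcan2). Overlap at the 10 genes rested on its definition, with 1 gene at a reciprocal overlap of 50% (Ppp3ca), 0 genes at summits within 100 bp and 3 genes at gaps up to 500 bp (Ppp3r1 added). By position in the gene body or 5 kb either side, Ppp3cb gained a Hoxb13 peak, giving 9 genes. Counting any peak within 1 kb of a start, an alternative chosen after seeing the data, gave 8 genes for Hoxb13 and 3 for Meis1. Shares of all genes under these alternatives are not given here, so the counts show only how the main counts move. No paired analysis was possible because each list covers 3 libraries with no value per library, and for the same reason no replicate could be left out. Read depth was unknown, so a missing peak at Nfatc3 does not show absence of binding.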

Other observations

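Over all 32851 RefSeq promoter windows, Hoxb13 peaks overlapped 41.4% of those with a CpG observed/expected ratio over 0.6 and 4.66% of the rest, and Meis1 peaks 7.54% and 2.29%. Among the 13 windows of the calcineurin, Rcan and NFAT genes, 6 had a ratio over 0.6. The highest ratios, 0.978 each, were those of the upstream Rcan1 start and of Ppp3r1, both with a Meis1 peak on the window. The Nfatc3 window printed above had a ratio of 0.964, with 0 peaks of either factor. Meis1 peaks overlapped 9.46% of all windows with TGACAG and 2.91% of those without it. An intronic Hoxb13 peak of Nfat5 on chromosome 8 was annotated to an intron of Mir5098, a microRNA gene that the RefSeq table places on chromosome 5, and it lies inside the RefSeq body of Nfat5.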
